A study of Mus musculus with 4 samples.

Results

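The imprinted growth regulators described here are 10 genes, Dlk1, Dio3, Meg3, Rian, H19, Mest, Peg3, Plagl1, Cdkn1c and Grb10, picked by symbol from an expression table of 45802 gene symbols. All 10 were found in the table. A value in all 4 libraries was listed for 7 of them (Dlk1, Dio3, Mest, Peg3, Plagl1, Cdkn1c and Grb10), and Meg3, Rian and H19 were blank in every library. Over the whole table, 16742 symbols were listed with a value in 1 or more libraries, 14415 of them in all 4. The genes were chosen with their values in these libraries known, so that their differences are given as a description and none of them was tested.

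The libraries held total RNA of mouse periosteal stromal cells, the connective tissue cells of the sheath around bone, and 2 libraries of PDGFRα reporter+ cells were set against 2 of PDGFRα reporter- cells. All cells came from the hindlimbs of male Pdgfrα-mTmG mice 9 to 10 weeks old dosed with tamoxifen for 5 days (150 mg/kg per day) and used 14 days after the last injection. In these mice the Pdgfra promoter drives CreER, and tamoxifen lets it exchange the red membrane protein tdTomato of a cell for green membrane GFP. The reporter thus marks cells in which that promoter was active during dosing rather than cells that make PDGFRα at harvest. Cells of both populations were grown for 1 passage with 10 ng/mL bFGF (basic fibroblast growth factor) and then sorted as negative for CD31, CD45 and Ter119, with mGFP+ cells taken as reporter+ and mTdtomato+ cells as reporter-. Each cell population pooled 3 to 6 mice per the labels and 5 to 8 mice per the study's methods. The sample labels number the replicates of each population 1 and 2, whereas the table heads its columns with 2 and 3. Libraries are therefore named by population and by the number in the heading, and the labels do not tell if equal numbers stand for a shared preparation of cells. No label says that the replicates of a population came from separate animals, and p-values here measure only the spread between these samples. Values are log2 expression values after quantile normalization, so that a difference of 1 is a doubling. Their linear unit is not stated, and levels are therefore compared between libraries, for the same gene or the same list of genes. Levels are not compared between genes, except in a filter on the mean value and to name the gene that makes up most of a marker sum.

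Imprinted genes are transcribed mainly from the copy inherited from one parent, under the control of DNA methylation set down in the egg or sperm. Many of them lie in clusters where a shared control region keeps protein-coding genes and long noncoding RNAs on opposite parental copies. Genes expressed from the paternal copy often promote growth of the fetus and placenta, as Dlk1, Igf2, Mest, Peg3 and Plagl1 do in the mouse. Genes expressed from the maternal copy, such as Cdkn1c, Grb10 and H19, often restrain it. Most of these genes are high in fetal tissue and decline after birth, and several stay active in progenitor cells of the adult. The values below add both parental copies together and do not show which copy was transcribed.

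The clearest pattern among the regulators was a difference between library numbers rather than between populations. All 7 valued genes were higher in both libraries numbered 3 than in both libraries numbered 2, with median log2 differences of 1.38 over the 7 genes and 0.047 over all genes tested. Of all 14415 genes, 36.4% were likewise higher in number 3 without overlap and 28.8% were lower, 65.2% in all. By contrast, the reporter+ and reporter- libraries overlapped for 7 of the 7 genes, beside 7.59% of all genes that were higher in both reporter+ libraries and 8.1% that were lower (15.7% in all). Within each number taken alone, reporter+ cells were higher both times for Mest and Cdkn1c (22.1% of all genes) and lower both times for Dio3 and Plagl1 (24.8%), 4 of 7 regulators beside 46.8% of all genes. The difference between numbers was larger than that between populations for 7 of 7 genes, as it was for 75.7% of all genes. These directions were part of how the genes were chosen, and nothing is read from the counts.

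**Figure D1:**
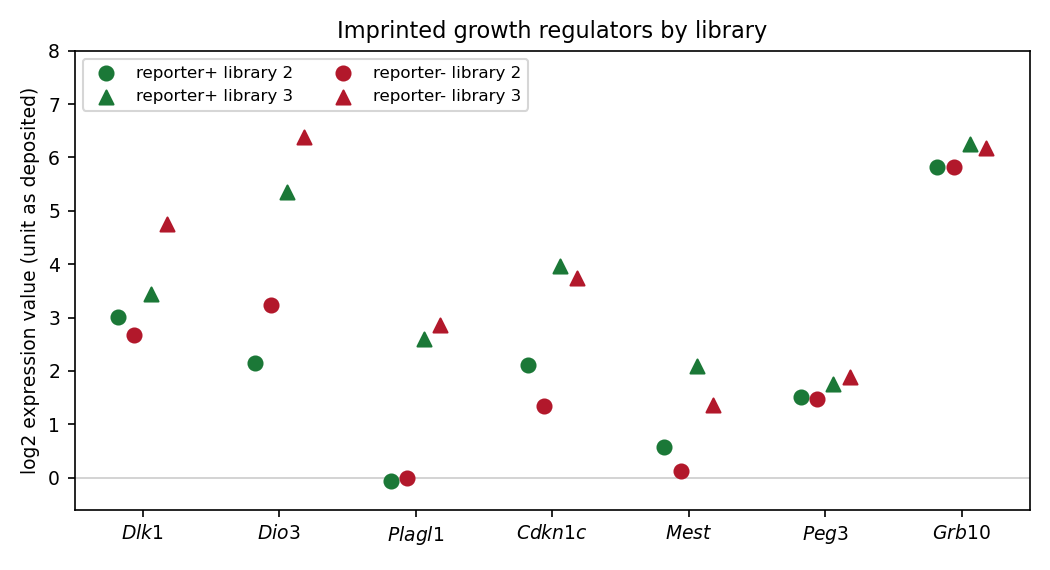
Log2 expression value of each regulator (vertical axis, unit as deposited) in the 4 libraries, with reporter+ in green, reporter- in red, libraries numbered 2 as circles and libraries numbered 3 as triangles. Dio3 ran from 2.15 to 6.38 and Grb10 only from 5.82 to 6.24, and for every gene drawn both triangles lie above both circles.

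The promoters of Dio3, Plagl1 and Dlk1 are shown because Dio3 and Plagl1 differed most between library numbers and Dlk1 was the regulator with the largest difference in opposite directions between the populations. Each sequence is the 250 bases before the gene's start in RefSeq (GRCm38.p6), on the strand of the gene, which is + for the 3 genes. Capitals mark TATAAA, the core of a TATA box, and GGGCGG, the core of a GC box that Sp1-type factors can bind, each searched on both strands, where the letters of the opposite strand read TTTATA and CCGCCC.
Dio3, chr12:110278980-110279229: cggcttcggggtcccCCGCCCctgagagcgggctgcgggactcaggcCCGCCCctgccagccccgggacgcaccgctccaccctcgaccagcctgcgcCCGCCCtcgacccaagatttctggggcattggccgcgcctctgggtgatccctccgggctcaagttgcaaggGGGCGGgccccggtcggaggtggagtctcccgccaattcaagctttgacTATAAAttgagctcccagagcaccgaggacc
Plagl1, chr10:13090582-13090831: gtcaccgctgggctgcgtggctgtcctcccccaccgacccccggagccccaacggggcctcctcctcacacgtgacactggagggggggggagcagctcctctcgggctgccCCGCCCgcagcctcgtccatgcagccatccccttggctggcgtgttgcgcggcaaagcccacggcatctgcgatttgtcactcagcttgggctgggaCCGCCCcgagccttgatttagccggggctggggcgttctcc
Dlk1, chr12:109452573-109452822: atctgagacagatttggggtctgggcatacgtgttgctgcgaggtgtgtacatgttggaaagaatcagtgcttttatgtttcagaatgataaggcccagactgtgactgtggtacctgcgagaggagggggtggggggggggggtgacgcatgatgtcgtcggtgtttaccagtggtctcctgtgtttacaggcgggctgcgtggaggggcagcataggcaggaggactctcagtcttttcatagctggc

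The Dio3 window held 1 TATAAA, which begins 31 bases before the start, and 4 GC boxes, and the Plagl1 window held 2 GC boxes and no TATAAA. Neither set of letters was found in the Dlk1 window. Over the 32851 promoter windows of the same length in the RefSeq table, 12.4% held TATAAA and 32.7% held GGGCGG on either strand. CpG dinucleotides, the sites of DNA methylation, numbered 21 in the Dio3 window, 19 in the Plagl1 window and 8 in the Dlk1 window, against a median of 6 over all windows. A match is a description of the letters and does not show that a factor binds there. RefSeq promoters were listed for 8 of the 10 genes. GENCODE M21 places the start of Dio3 inside the window printed, so that the TATAAA lies downstream of that start. The Plagl1 window lies inside the span that GENCODE M21 gives for that gene, chr10:13060504-13131694, and not upstream of it.

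Dlk1, Dio3, Meg3 and Rian share 1 imprinted domain on chromosome 12. Dlk1 (chr12:109452823-109463336, + strand) encodes a membrane protein of the Delta and Notch family that is also shed as a soluble factor, best known for holding preadipocytes back from becoming fat cells. Its value was 3.01 in reporter+ library 2, 3.44 in reporter+ library 3, 2.68 in reporter- library 2 and 4.75 in reporter- library 3. The means were 3.23 ± 0.31 (SD, n = 2) in reporter+ cells and 3.71 ± 1.46 (SD, n = 2) in reporter- cells. Reporter- library 3 stood highest, and the other 3 libraries lay close together. The populations changed places between numbers, with Dlk1 higher in reporter+ cells by 0.34 in number 2 (1.26-fold) and higher in reporter- cells by 2.47-fold in number 3, a log2 difference of reporter+ minus reporter- of -1.30. From number 2 to number 3 the log2 difference was 0.43 in reporter+ cells and 2.07 in reporter- cells. With 1 library for each population and number, this contrast has no replicate.

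Dio3 (chr12:110279068-110281097, + strand, a single exon) encodes the deiodinase that inactivates thyroid hormone and so shields growing tissue from it. It had the largest difference between numbers of the 7 genes. Its value was 2.15 in reporter+ library 2, 5.36 in reporter+ library 3, 3.24 in reporter- library 2 and 6.38 in reporter- library 3. Both libraries numbered 3 stood well above both numbered 2, so that each population mean, 3.75 ± 2.27 (SD, n = 2) in reporter+ and 4.81 ± 2.22 (SD, n = 2) in reporter- cells, spans a wide range. The value in number 3 was 9.23-fold that in number 2 in reporter+ cells and 8.85-fold in reporter- cells. Within each number Dio3 was lower in reporter+ cells, by log2 differences of -1.08 in number 2 and -1.02 in number 3, which makes it 2.12-fold and 2.03-fold higher in reporter- cells. It was 1 of 2 regulators lower in reporter+ cells within both numbers, as 24.8% of all genes were, and its mean difference was -1.05. The SD of each population also holds the difference between numbers and is no measure of the spread within a number. These are bulk samples, in which more cells that express a gene and more RNA per cell cannot be told apart.

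The other genes of this domain were read from a list of neighbours. Begain, a protein-coding gene at the edge of the domain, was -2.50 and -0.41 in reporter+ libraries 2 and 3 and -1.88 and 0.92 in reporter- libraries 2 and 3. Like Dio3, it was higher in number 3 in both populations, with a mean log2 difference of 2.44, and lower in reporter+ cells within both numbers, with a mean of -0.98. Rtl1, a paternally expressed gene derived from a retrotransposon and needed in the placenta, was blank in reporter+ library 2 and lay between -7.83 and -5.23 in the other 3 libraries. The noncoding RNAs of the domain, Mirg and Dio3os, were blank in every library.

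**Figure D2:**
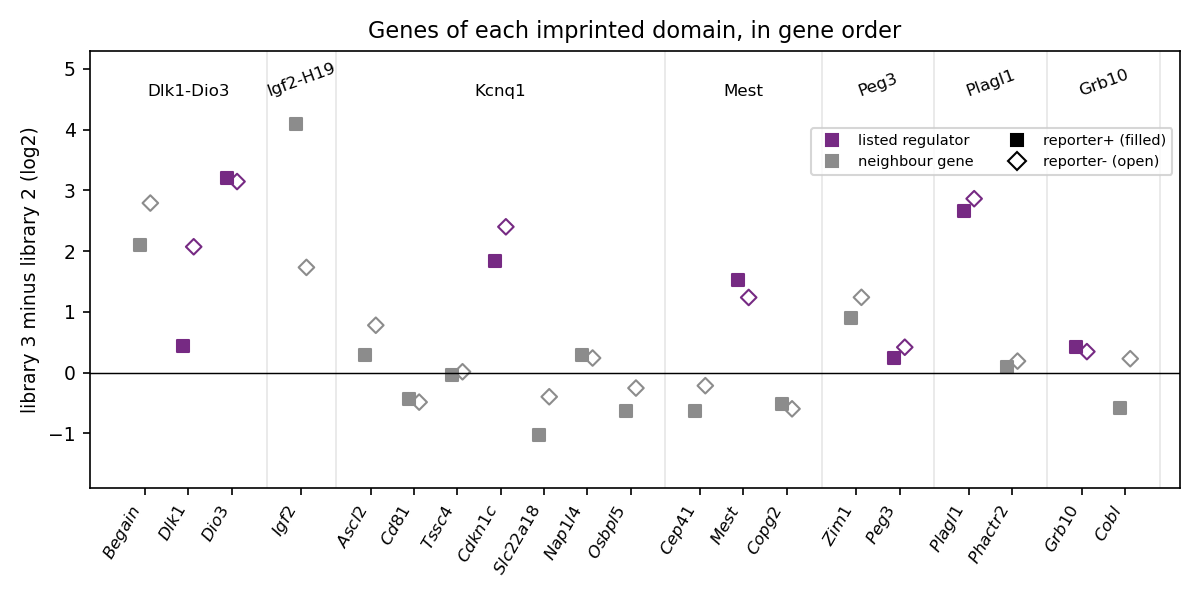
Log2 difference of library 3 minus library 2 (vertical axis) for each regulator (purple) and each neighbour gene (grey) with 4 values, grouped by imprinted domain, with reporter+ as filled squares and reporter- as open diamonds. Begain, Dlk1 and Dio3 lie above 0 in both populations, whereas genes beside Cdkn1c lie on both sides of 0 and those beside Mest lie below it, Copg2 at a mean of -0.56.

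The transcription factors of the group were Plagl1 and Peg3. Plagl1 (chr10:13060504-13131694, + strand) encodes a zinc finger protein that regulates a network of other imprinted genes and can arrest the cell cycle. Its value was -0.06 in reporter+ library 2, 2.60 in reporter+ library 3, 0.00 in reporter- library 2 and 2.86 in reporter- library 3. Plagl1 was thus almost equal in the populations within each number, with log2 differences of reporter+ minus reporter- of -0.06 and -0.27. Between numbers it stood 6.33-fold higher in number 3 in reporter+ cells and 7.28-fold higher in reporter- cells. The population means were 1.27 ± 1.88 and 1.43 ± 2.02 (SD, n = 2 each) in reporter+ and reporter- cells. The neighbour Phactr2, which encodes a protein that binds phosphatase and actin, differed by 0.14 between numbers.

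Peg3 (chr7:6703892-6730431, - strand), a large zinc finger protein that marks stem and progenitor cells in several adult tissues, varied least between numbers of the 7 genes. It was 1.51 in reporter+ library 2, 1.76 in reporter+ library 3, 1.47 in reporter- library 2 and 1.88 in reporter- library 3. The means of 1.64 ± 0.17 in reporter+ and 1.67 ± 0.29 in reporter- cells (SD, n = 2 each) differed by less than either SD. Number 3 was higher than number 2 by 0.33 on average, or 1.18-fold in reporter+ and 1.33-fold in reporter- cells. Its neighbour Zim1, also a zinc finger gene, lay at -4.39 to -2.86 and was higher in number 3 by 1.06, and Usp29 had a value in only 1 library of each population.

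Mest (chr6:30723547-30748465, + strand) encodes a protein of the alpha/beta hydrolase fold that is linked to growth of fat and mesoderm. It was 0.58 in reporter+ library 2, 2.10 in reporter+ library 3, 0.12 in reporter- library 2 and 1.36 in reporter- library 3. Within each number Mest was higher in reporter+ cells, 1.38-fold in number 2 and 1.67-fold in number 3, and number 3 was higher by 2.86-fold in reporter+ and 2.36-fold in reporter- cells. The means were 1.34 ± 1.07 in reporter+ and 0.74 ± 0.87 in reporter- cells (SD, n = 2 each), a log2 difference of 0.60. The end of Mest overlaps Copg2, a coat protein gene on the opposite strand, and whether strand was used in counting is not given in the sources used here. Copg2 differed in the opposite direction between numbers, by -0.56, and Cep41, on the other side of Mest, by -0.42.

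The growth restrainers were Cdkn1c and Grb10. Cdkn1c (chr7:143458339-143461050, - strand) encodes p57, an inhibitor of cyclin-dependent kinases that holds cells out of the cycle. It was 2.11 in reporter+ library 2, 3.96 in reporter+ library 3, 1.34 in reporter- library 2 and 3.74 in reporter- library 3. Number 3 stood 3.59-fold above number 2 in reporter+ cells and 5.28-fold in reporter- cells. Cdkn1c was also the other regulator besides Mest that was higher in reporter+ cells within both numbers, by log2 differences of 0.77 and 0.22 (1.71-fold and 1.16-fold), as 22.1% of all genes were. The population means were 3.04 ± 1.30 and 2.54 ± 1.70 (SD, n = 2 each) in reporter+ and reporter- cells with a difference of 0.49, and these SDs too hold the difference between numbers. Cdkn1c overlaps a predicted gene, Gm44732, on the opposite strand.

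Of 6 neighbours of Cdkn1c in the Kcnq1 domain with 4 values, Slc22a18, Osbpl5 and Cd81 were lower in number 3, by mean log2 differences of -0.71, -0.44 and -0.46, while Nap1l4 (0.26) and Ascl2 (0.53) were higher and Tssc4 (-0.01) overlapped. These encode a solute transporter, a lipid-binding protein, a tetraspanin of the cell surface, a histone chaperone, a transcription factor of the placenta and a spliceosome assembly factor. None of them differed between numbers by as much as Cdkn1c, whose difference was 2.12. Tssc4 was lower in both reporter+ than in both reporter- libraries, by -0.30. Kcnq1, a potassium channel subunit, was at -6.34 and -7.20 in the reporter+ libraries and blank in the reporter- libraries. Kcnq1ot1, the noncoding RNA that silences this domain on the paternal copy, and Phlda2, a restrainer of placental growth, were blank in every library.

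Grb10 (chr11:11930508-12038683, - strand) encodes an adaptor that binds the insulin and IGF1 receptors and damps their signal, and is expressed from the maternal copy in most tissues and from the paternal copy in neurons. It was 5.82 in reporter+ library 2, 6.24 in reporter+ library 3, 5.83 in reporter- library 2 and 6.17 in reporter- library 3. The 4 values spanned less than those of Dio3, Plagl1, Cdkn1c, Dlk1 or Mest, and the populations nearly coincided within each number, with log2 differences of -0.01 and 0.07. Number 3 was 1.34-fold higher in reporter+ and 1.27-fold higher in reporter- cells. Its neighbour Cobl, which encodes an actin nucleator, was at -4.11 to -3.51 and overlapped between numbers, and Ddc was blank in reporter- library 2.

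**Figure D3:**
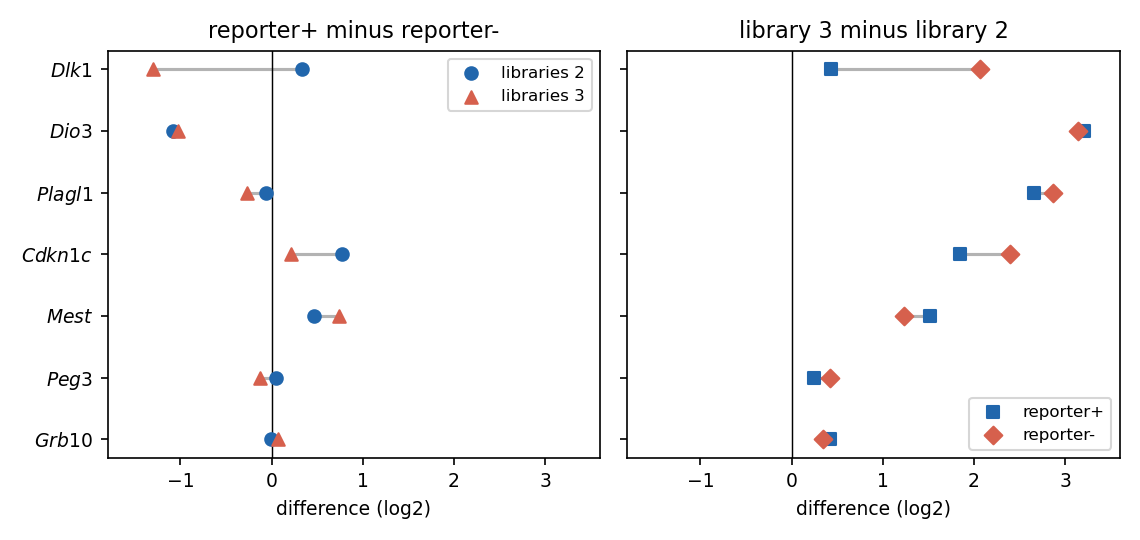
Log2 differences of each regulator (horizontal axes, same scale), reporter+ minus reporter- within libraries 2 (circles) and 3 (triangles) on the left, and library 3 minus library 2 within reporter+ (squares) and reporter- (diamonds) on the right. On the left Dlk1 spans 0.34 to -1.30 and the other genes lie between -1.08 and 0.77, whereas on the right all points lie above 0, up to 3.21 for Dio3.

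The long noncoding RNAs Meg3 (chr12:109541001-109571726, + strand) and Rian (chr12:109603940-109661716, + strand), which are expressed from the maternal copy of the Dlk1-Dio3 domain, and H19 (chr7:142575529-142578143, - strand), which shares a control region with Igf2, had no value in any library. A blank for such genes says little in this table. Of 10017 symbols that RefSeq lists as long noncoding RNAs, 44 (0.439%) had any value, against 15747 of 20364 protein-coding symbols (77.3%). No value was listed for any of 1184 miRNA or 123 small nucleolar RNA symbols. Levels of the 3 genes are therefore not known from these data.

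Igf2, the paternally expressed fetal growth factor paired with H19, had values. It was -1.69 in reporter+ library 2, 2.40 in reporter+ library 3, -0.88 in reporter- library 2 and 0.85 in reporter- library 3. Igf2 was higher in number 3 in both populations, by 4.09 in reporter+ and 1.73 in reporter- cells. Reporter+ cells were lower in number 2 (-0.81) and higher in number 3 (1.55), so that, as for Dlk1 but the other way round, the sign of the population difference was not shared by the numbers. Igf2 overlaps the antisense gene Igf2os, which was blank. Ins2, next to it, was blank too.

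Set against the 10224 genes whose log2 values averaged 0 or more, the differences between numbers fell at percentile 99.8 for Dio3, 99.6 for Plagl1, 99.3 for Cdkn1c, 98.2 for Mest and 97.7 for Dlk1, and at 83.1 for Grb10 and 79.6 for Peg3. In the order of that difference, Dio3 (3.18) was followed by Plagl1 (2.76), Cdkn1c (2.12), Mest (1.38), Dlk1 (1.25), Grb10 (0.39) and Peg3 (0.33). By their values within each population, Mest (1.52 and 1.24) and Dlk1 (0.43 and 2.07) overlapped in this order, as did Grb10 (0.43 and 0.34) and Peg3 (0.24 and 0.42), and Dlk1 also reached into the range of Cdkn1c (1.84 and 2.40). For the difference between populations, Mest stood at percentile 98.5, Cdkn1c at 98.0, Grb10 at 61.0, Peg3 at 39.5, Plagl1 at 13.2, Dlk1 at 1.67 and Dio3 at 0.156, each from populations that overlap.

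**Figure D4:**
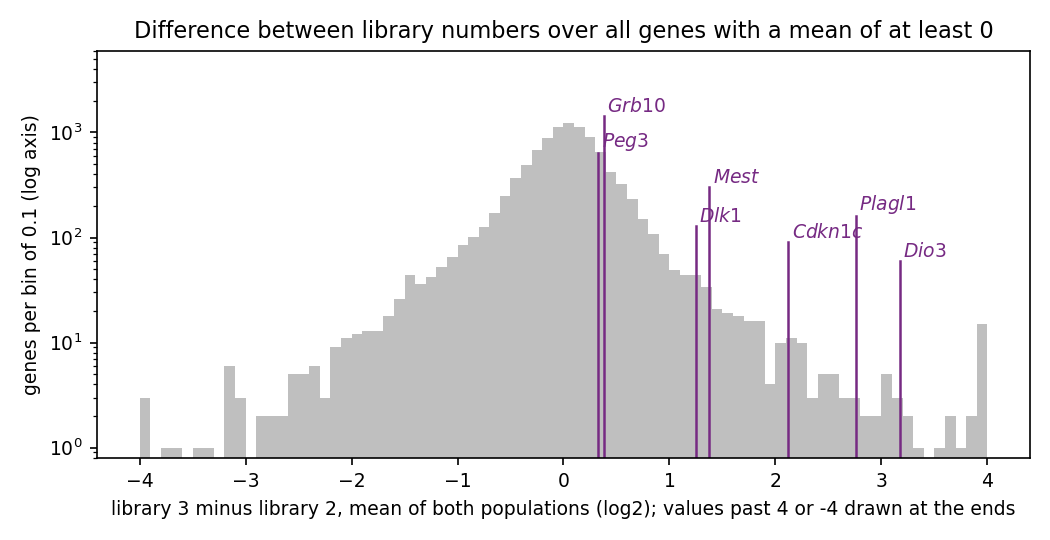
Number of genes (vertical log axis) by log2 difference of library 3 minus library 2, averaged over both populations (horizontal axis), for the 10224 genes whose values averaged 0 or more. Purple lines, whose heights carry no value, place the regulators, with Peg3 (0.33) and Grb10 (0.39) within the main body and Dio3 at 3.18 in the upper tail.

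No gene of the table passed an adjusted p of 0.05 between populations with limma and Benjamini-Hochberg adjustment (0 of 14415 genes, 0% in either direction), and 131 genes (0.909%) had an unadjusted p under 0.05. A limma fit with the heading number as a block called 29 genes, and the same block without a trend called 0. The lists of related genes below are described against this background, with counts and medians beside those of all genes. Over all genes the median log2 difference of reporter+ minus reporter- was -0.004, and over the 7 regulators it was -0.039.

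Of 27 listed neighbours in the imprinted domains of the regulators, 13 had 4 values and 0 were called by limma with Benjamini-Hochberg adjustment, with 0 at an unadjusted p under 0.05 and 0 called with the block. Their median difference was -0.192 between populations and -0.013 between numbers. Without overlap, 5 were higher in number 3 (Begain, Igf2, Nap1l4, Ascl2 and Zim1) and 5 were lower (Slc22a18, Osbpl5, Cd81, Copg2 and Cep41), 38.5% in each direction beside 36.4% and 28.8% of all genes. Within both numbers 8 of the 13 were lower and 0 higher in reporter+ cells, beside 24.8% and 22.1% of all genes, and 2, Tssc4 and Phactr2 (15.4%), were lower without overlap, beside 8.1%.

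Of 40 other genes reported as imprinted in the mouse, 29 had 4 values, and 0 were called by limma with Benjamini-Hochberg adjustment, with 0 at an unadjusted p under 0.05 and 0 called with the block. Their median was -0.058 between populations and 0.063 between numbers, beside -0.004 and 0.047 over all genes. In number 3, 13 were higher (44.8%) and 7 lower (24.1%) without overlap, beside 36.4% and 28.8% of all genes. Among genes of the list with a mean log2 value not below 0, Peg10 came closest to Dio3 and Plagl1 in the difference between numbers. Peg10, derived from a retrotransposon and needed in the placenta, had 1.06 and 3.65 in reporter+ libraries 2 and 3 and 1.29 and 3.71 in reporter- libraries 2 and 3. Tfpi2, at a mean of only -3.68, differed by more, 2.86. Peg10 was thus higher by 2.59 and 2.42 in number 3. Sgce, which lies head to head with it, differed between numbers by -0.28 in reporter+ and 0.30 in reporter- cells, 0.01 on average. Among genes of the list with a mean log2 value not below 0 and lower in reporter+ cells within both numbers, those with the largest mean differences were, besides Peg10 (-0.15), Ndn (-0.22), which encodes the growth suppressor necdin, Gnas (-0.22), the stimulatory G protein subunit, Qpct (-0.26), an enzyme that modifies peptide ends, and Trappc9 (-0.23), a vesicle transport factor. Within both numbers 12 of the 29 were lower and 2 higher in reporter+ cells, beside 24.8% and 22.1% of all genes. Trappc9, Snrpn and Snurf, 10.3% of the list, had populations that did not overlap, all lower in reporter+ cells, beside 8.1% of all genes, and Snrpn and Snurf share transcripts and may share reads. Htr2a, a serotonin receptor, was the gene of this list with a mean not below 0 that was higher in reporter+ cells in both numbers (0.22), and it was lower in number 3 by -1.50. Tfpi2, Sgce, Snrpn and Snurf were chosen after their values were seen.

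The partners through which the regulators act were taken from a list of 25 genes, 23 of them with 4 values. Limma with Benjamini-Hochberg adjustment called 0 of them, with 1 at an unadjusted p under 0.05 and 0 called with the block, and 10 were higher (43.5%) and 7 lower (30.4%) in number 3 without overlap, beside 36.4% and 28.8% of all genes, at a median of 0.128. Of the thyroid hormone genes around Dio3, Dio2, the deiodinase that activates the hormone, was 2.56 and 6.42 in reporter+ and 2.72 and 4.88 in reporter- libraries 2 and 3. Dio2 and Dio3, which act in opposite directions on the hormone, were thus both higher in number 3, Dio2 by 3.01 on average. Klf9, a target of the hormone receptor, was lower in number 3 without overlap, by -0.52 on average. It was higher in reporter+ cells within both numbers, by 0.44 on average with overlapping populations. Of the hormone receptor genes, Thrb was lower in number 3 by -0.76 and Thra overlapped between numbers. Dio1 was listed in only 1 library, reporter- library 2, at -6.17.

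Among adipogenic factors, which Dlk1 restrains, Cebpa was 2.40 and 4.34 in reporter+ and 2.46 and 5.00 in reporter- libraries 2 and 3. Pparg was 0.48 and 2.50 in reporter+ and 0.18 and 3.26 in reporter- libraries 2 and 3. Both were highest in reporter- library 3, as Dlk1 was, and their mean differences between numbers were 2.24 and 2.56. Cebpb, also of this group, overlapped between numbers, with 5.64 and 5.72 in reporter+ and 5.73 and 5.51 in reporter- libraries 2 and 3. Dlk2, the close relative of Dlk1, was higher in number 3 by 1.18. Of the relatives of Plagl1, Plag1 and Plagl2 differed in the same direction as Plagl1, by 0.64 and 0.57.

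Among the other inhibitors of cyclin-dependent kinases, Cdkn1a (p21) differed most between populations and little between numbers. It was 4.92 and 5.00 in the reporter+ libraries and 5.38 and 5.55 in the reporter- libraries 2 and 3, which do not overlap. The log2 difference was -0.51 (SE 0.15) with an unadjusted p of 0.0215 and an adjusted p of 1 from limma with Benjamini-Hochberg adjustment, so that it did not pass. Cdkn2a, lower by -0.29, and Cdkn1b, lower by -0.09, also had populations that did not overlap. Without overlap, 3 of the 23 partners with 4 values were lower in reporter+ cells and 1 was higher (13% and 4.35%), beside 8.1% and 7.59% of all genes. Between numbers these inhibitors were mixed. Cdkn2c, in contrast to Cdkn1c, was lower in number 3 by -1.62 and Cdkn2b by -0.91, while Cdkn2d was higher by 0.13 and the others of the list overlapped. On the insulin and IGF side of Grb10, Irs1 and Irs2, the adaptors that carry the receptor signal, were higher in number 3 by 0.62 and 1.03 and lower in reporter+ cells by -0.26 and -0.20. Grb14, the relative of Grb10, was lower in number 3 by -1.50 and equal in the populations (0.00). Dio2, Thra, Thrb, Pparg, Cebpb, Plag1, Plagl2, Cdkn1b, Cdkn2b, Cdkn2c, Cdkn2d and Grb14 were chosen after their values were seen.

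Cell type markers were compared in the same libraries, with sums that add linear values over the genes of a list. Markers of periosteal stroma had values for 8 of 8 genes and a summed linear level of 880 to 1221, with Pdgfra at 7.44 to 7.87 in all libraries and overlapping between populations, Prrx1 at 3.51 to 4.22 and Postn higher in number 3 by 3.03. Without overlap, 2 of the 8 were higher and 4 lower in number 3, beside 36.4% and 28.8% of all genes. Within both numbers 5 of the 8 were lower in reporter+ cells, Postn by -1.14 on average, and 2, Lum (1.83) and Dcn (1.39), were higher, beside 24.8% and 22.1% of all genes. Chondrocyte markers were lower in number 3 without overlap for 3 of 4 genes with 4 values, beside 28.8% of all genes. The median of these markers was -1.93, with Col2a1 lower by -3.14 and Acan by -3.54. Their summed level overlapped (253 and 190 in number 3, 284 and 148 in number 2, reporter+ first), but it was mostly that of Comp. Comp was the 1 gene of the 4 that overlapped between numbers, and it was higher in both reporter+ libraries, by 0.74. Without overlap, smooth muscle and pericyte markers were higher in number 3 for 4 of 8 genes and lower for 1, Cspg4 (-2.16), beside 36.4% and 28.8% of all genes. Their sums were 29.7 and 45.3 in number 3 against 18.5 and 38.2 in number 2, reporter+ first. Between populations 7 of these 8 were lower in reporter+ cells within both numbers, 3 of them without overlap, beside 24.8% and 8.1% of all genes, with Myh11 lower by -2.39. Proliferation markers summed to 23.4 and 38.5 in reporter+ and 28.9 and 30.0 in reporter- libraries 2 and 3, with 2 of 8 genes higher in number 3 without overlap, beside 36.4% of all genes. Macrophage markers were higher in reporter+ cells, at 221 and 263 against 88.5 and 169, with 4 of 8 genes not overlapping, beside 7.59% of all genes, although CD45-positive cells had been removed by the sort. Endothelial markers summed to 0.317 and 1.24 in reporter+ and 1.23 and 3.91 in reporter- libraries 2 and 3, and in both libraries numbered 3 the sum was mostly Tek. Of the 6 with 4 values, 1 was higher in number 3 without overlap (Tek, by 3.32). Another 1 was lower (Vwf, by -0.73) and 4 overlapped, beside 36.4% and 28.8% of all genes that were higher and lower. Pecam1 and Cdh5 were lower in both reporter+ libraries, as were 4 of the 6 endothelial genes with 4 values, beside 8.1% of all genes. Tek and Vwf overlapped between populations. Of the skeletal muscle markers, which summed to 1.35 and 1.11 in reporter+ and 3.00 and 1.52 in reporter- libraries 2 and 3, Myf5 and Pax7 were blank in every library and Myod1 was listed in 3, while Des (-2.73 and -3.89 in reporter+, -1.13 and -1.49 in reporter- libraries) and Acta1 (a mean difference of -2.01) were lower in both reporter+ libraries and Tnnt3 overlapped (0.16). Schwann cell markers summed to 1.47 to 4.47, and Sox10 was listed only in the reporter- libraries. Lum, Dcn, Comp, Tek, Vwf, Cspg4, Des, Acta1 and Tnnt3 were chosen after their values were seen. Some of these markers thus differed between numbers, as the regulators did, and others between populations, and their part in the values of the regulators was not tested.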

How the data were processed

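Total RNA of 4 libraries of sorted mouse periosteal cells was sequenced with stranded paired-end Illumina libraries. The submitters' processing notes name bcl2fastq 2.17.1.14, Partek 7.0 and the genome build GRCm38.p6, and the aligner, the counting, the annotation and the filters are not given in the sources used here. The authors deposited log2 values after quantile normalization across the 4 libraries, 1 per gene symbol and library, with blanks where no signal was listed. All libraries therefore share a lowest value of -10.07, a median of 1.48 and a highest value of 11.73, and quantile normalization removes any shift shared by all genes. The reporter+ libraries had values for 15444 and 15596 genes and the reporter- libraries for 15423 and 15605. No read numbers can be recovered from the values, so that depth and counting error are unknown.

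The regulators and the lists were chosen with earlier results of these data known. For each gene the value per library, the mean and SD per population, the difference of reporter+ minus reporter- overall and within numbers 2 and 3, and the difference between numbers were computed, with no pseudocount. The numbers were read from the column headings, which name the population and number only. Genes with 4 values (14415) were fitted with limma 3.58.1 in R 4.3.3 (lmFit, eBayes with a trend, two-sided, Benjamini-Hochberg over all of them, threshold 0.05). The fit was tested on simulated data. With 2 libraries against 2, the smallest exact permutation p is 0.333, so that no permutation test of a single gene was made. Groups were called not overlapping when every value of one lay above every value of the other. A cell type list's summed level adds the linear values, with blanks as 0.

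Named genes are all regulators, all domain neighbours with 4 values, up to 5 other imprinted genes in each direction (mean log2 value of 0 or more) and up to 8 partners, both with the same sign in the 2 numbers and ordered by the size of the difference, and the first 3 genes of each marker list. Others are named as chosen after their values were seen. One partner gene that the rule names is not reported here. Positions are from GENCODE M21 (GRCm38). Promoters and gene types are from RefSeq (GRCm38.p6), in which 41220 of 45802 symbols were found. Alternatives were a replicate block, no trend, a pseudocount of 1, a level filter at 0, blanks set to the lowest value, median centring and leaving out each library. Plots were drawn with matplotlib 3.10.9, and summaries used pandas 2.3.3 and numpy 2.4.6 under Python 3.11.15.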

Additional observations from a re-analysis of the deposited data

Results flagged for a closer look

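The difference of reporter+ minus reporter- had opposite signs in the library numbers for 3 of the 7 regulators. For Dlk1 it was 0.34 in number 2 and -1.30 in number 3. For Peg3 it was 0.049 in number 2 and -0.13 in number 3, and for Grb10 it was -0.010 in number 2 and 0.071 in number 3. These differences between numbers were not tested, since each rests on 1 library per population and number.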

How the results depend on the processing

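The count of genes called between populations was 0 by limma and 29 with the replicate block on the heading number (913 at an unadjusted p under 0.05), and 0 for that block without a trend (941 unadjusted), an alternative added after seeing the data. Across genes, deviations from the population means correlated at 0.681 for libraries that share a number, but with 2 pairs and no label that ties them the numbers are not known to pair the samples. No regulator's difference was tested under the pairing, and every other alternative run gave 0 calls in the table and in the 3 lists. With all 4 libraries, the median of the other imprinted genes between populations was -0.060 to -0.009 over the alternatives. Leaving out each library gave 0 to 0 genes called in the table and in the 3 lists, and a median of the other imprinted genes of -0.198 to 0.013. Leaving out a library also unbalances the numbers and turned the sign of the population difference for every one of the 7 regulators, from -2.66 to 0.55 for Dio3, -1.52 to 0.55 for Dlk1, -0.16 to 1.36 for Mest, -0.25 to 0.17 for Peg3, -1.60 to 1.27 for Plagl1, -0.71 to 1.70 for Cdkn1c and -0.18 to 0.24 for Grb10. The difference between numbers could not change sign in this way, because the numbers did not overlap for any of the 7 regulators, and nothing is read from its sign. It ran from 2.63 to 3.72 for Dio3, 0.60 to 1.90 for Dlk1, 1.01 to 1.75 for Mest, 0.27 to 0.39 for Peg3, 2.63 to 2.90 for Plagl1, 1.74 to 2.51 for Cdkn1c and 0.35 to 0.42 for Grb10. With a pseudocount of 1 it was 2.98 for Dio3, 0.93 for Mest and 1.95 for Plagl1, and the pseudocount shrinks differences of low values by construction. Depth is unknown, and 2 libraries per population limit every comparison.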
